A study of Homo sapiens with 4 samples.

Results

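The circular RNA CDR1-AS and the hairpins that give rise to miR-7 were examined in a list of RNA regions crosslinked to Argonaute proteins in HEK293, a human embryonic kidney cell line. Members were all listed regions that overlapped, on the same strand of the human genome build hg19, the CDR1-AS circle (chrX:139865339-139866824, plus strand) or the hairpins of MIR7-1 (chr9:86584663-86584772, minus strand), MIR7-2 (chr15:89155056-89155165, plus strand) and MIR7-3 (chr19:4770682-4770791, plus strand). They numbered 16 of 211947 regions: 12 on the circle, 1 on MIR7-1, 1 on MIR7-2 and 2 on MIR7-3. No region lay on the minus strand at the circle, the strand of the protein-coding gene CDR1.

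The data came from PAR-CLIP, in which a photoreactive uridine analogue in the RNA is crosslinked to a bound protein by long-wave ultraviolet light and the RNA that is recovered with the protein is sequenced. There were 3 AGO1 libraries, from cells with a stably expressed His/FLAG/HA tag that were fed 4-thiouridine at 200 µM and precipitated with a FLAG antibody, and 1 AGO2 library, from cells fed 100 µM and precipitated with an antibody to AGO2. All cells were labelled for 16 h and crosslinked at 365 nm. A tag on AGO2 is mentioned in the design text but not in that library's own treatment label. The deposited list holds 1 value per region and none per library, and which libraries went into it is not stated. The depth of each library is therefore unknown, no value has a replicate error, and AGO1 could not be set against AGO2. The value is the authors' score, a whole number from 1 to 1000 whose meaning is not stated. A high score can come with more of an RNA or with more Argonaute on it, and these cannot be told apart here.

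MicroRNAs are short RNAs that Argonaute proteins carry to matching stretches of other RNAs, which are then repressed. They are cut from hairpin precursors, and pairing rests mostly on the seed near the 5′ end of the mature strand. CDR1-AS, also called ciRS-7, is an exon joined head to tail into a circle. It is transcribed antisense to CDR1, is abundant in the brain and is known for its many matches to the seed of miR-7. RefSeq lists CDR1-AS as a synonym of the long noncoding RNA gene LINC00632.

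The mature strands are shown because they define what Argonaute carries from the hairpins. Capitals mark the seed, bases 2 to 8, and the sequences are those of RefSeq (GRCh38.p14), given 5′ to 3′.
hsa-miR-7-5p: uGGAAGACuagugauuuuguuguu
hsa-miR-7-1-3p: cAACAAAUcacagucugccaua
hsa-miR-7-2-3p: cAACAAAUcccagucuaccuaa
The 5p strand of 24 nt was the same at all 3 hairpins. Among 2370 mature names in the RefSeq table it was the only one with its seed. Its seed pairs with the heptamer GUCUUCC in a target. The 3p strands of MIR7-1 and MIR7-2, each 22 nt, shared their seed with each other and with no other name in the table. They differed by 4 substitutions, A10C, G17A, A20U and U21A, with the MIR7-1 base first and positions counted from the 5′ end.

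RefSeq gave the whole hairpin of 110 nt for MIR7-2 and MIR7-3. These are shown with the nucleotides inside the listed regions in capitals, by position from the hairpin's 5′ end, since the hg19 and GRCh38.p14 hairpins have the same length.
MIR7-2 hairpin: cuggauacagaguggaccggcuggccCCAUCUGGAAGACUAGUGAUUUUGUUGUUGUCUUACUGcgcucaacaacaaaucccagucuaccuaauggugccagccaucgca
MIR7-3 hairpin: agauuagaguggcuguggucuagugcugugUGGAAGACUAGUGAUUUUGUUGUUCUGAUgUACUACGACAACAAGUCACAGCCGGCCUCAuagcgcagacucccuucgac
The longest stretch that both hairpins share is 24 nt and is miR-7-5p itself. A read of the mature 5p strand therefore matches all 3 hairpins equally well. Nothing in the labels or headers says how such reads were placed, so the scores of the regions on the 5p arms cannot be assigned to single loci with certainty.

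All 3 hairpins carried a region over the complete 5p arm, and the scores differed widely. The region on MIR7-1 (chr9:86584684-86584768) had a score of 565. That on MIR7-2 (chr15:89155082-89155119) had a score of 44. The first on MIR7-3 (chr19:4770712-4770740) had a score of 25. MIR7-1 thus stood 12.8 times above MIR7-2 and 22.6 times above the first region of MIR7-3, and held 88.8% of the hairpins' summed score of 636. With no value per library, these ratios have no error. They also set unlike regions side by side. The region on MIR7-1 was 85 nt wide and took in both arms, while the others were 38 nt and 29 nt wide. Per nt of region the scores were 6.65, 1.16 and 0.862.

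The region on MIR7-1, which lies within the span of the protein-coding gene HNRNPK in RefSeq, took in both arms. It ran from nt 5 to nt 89 of the hairpin. The 5p arm lies at nt 24 to 47 and the 3p arm at nt 66 to 87. The region thus began 19 nt before the 5p strand and ended 2 nt after the 3p strand. HNRNPK encodes an RNA-binding protein of the nuclear ribonucleoprotein complexes.

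The region on MIR7-2 covered the 5p arm alone. It ran from nt 27 to nt 64, from 5 nt before to 9 nt after the 5p strand at nt 32 to 55. It stopped short of the 3p arm at nt 72 to 93, on which no region was listed. MIR7-2 lies within the span of AEN, which encodes a nuclease, and overlaps another microRNA gene, MIR3529, in RefSeq. No region lay on the opposite strand of MIR7-2, nor within 1000 nt on that strand.

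MIR7-3, which lies within its noncoding host gene MIR7-3HG, carried 2 regions. The first began at nt 31, exactly at the first base of the 5p strand, and ended at nt 59, 5 nt after its last base. The other (chr19:4770742-4770771) ran from nt 61 to nt 90, after a gap of 1 nt, and had a score of 2. The median over the whole list was 3.

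**Figure D1:**
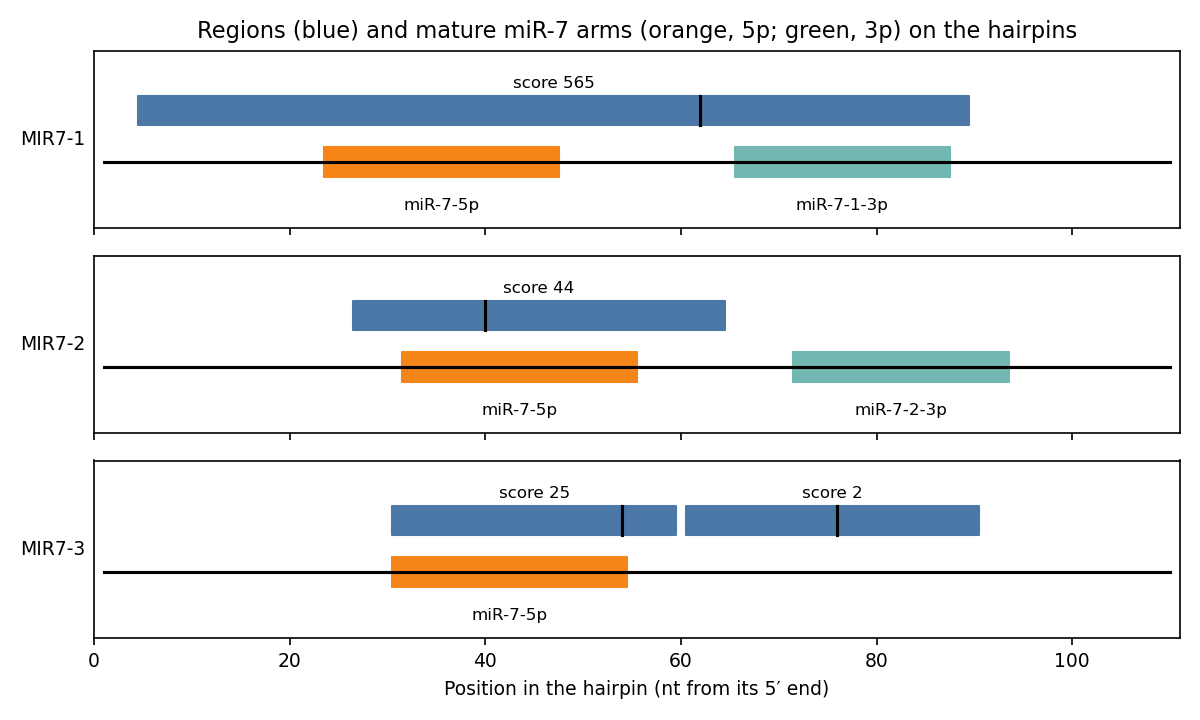
Position of the listed regions (blue, with their authors' scores, and a black tick at the 1-nt inner position) on the miR-7 hairpins, in nt from the 5′ end of each hairpin of 110 nt. Orange bars are the miR-7-5p strand and green bars the 3p strands that RefSeq names. The region on MIR7-1 spans both arms, that on MIR7-2 the 5p arm alone, and MIR7-3 has separate regions with scores of 25 and 2.

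Against the whole list, the hairpin regions that took in the 5p arm ranked high for their size. The score of MIR7-1 was the 23rd highest of 211947, and 0.0109% of regions reached it. Of the 4605 nuclear regions (autosomes and X) within 10% of its width of 85 nt, 0.0651% scored at least 565, and their median was 11. For MIR7-2, 38 nt wide, 0.446% of 32303 regions of like width reached 44, with a median of 3. For the first region on MIR7-3, 29 nt wide, 0.628% of 40436 reached 25, with a median of 2. The last region of MIR7-3, with a score of 2, lay at the median of 2 of regions of like width.

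The surroundings of the hairpins differed as well. Within 1000 nt of MIR7-1 on its strand lay 10 further regions, with scores of 2 to 15 and a median of 3.5. The hairpin region scored 37.7 times the highest of these, and the nearest of them was 324 nt away. Around MIR7-2 the nearest other region on the strand was 3682 nt upstream, with a score of 1. Around MIR7-3 none lay within 5000 nt, and the nearest was 21071 nt downstream, with a score of 3.

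**Figure D2:**
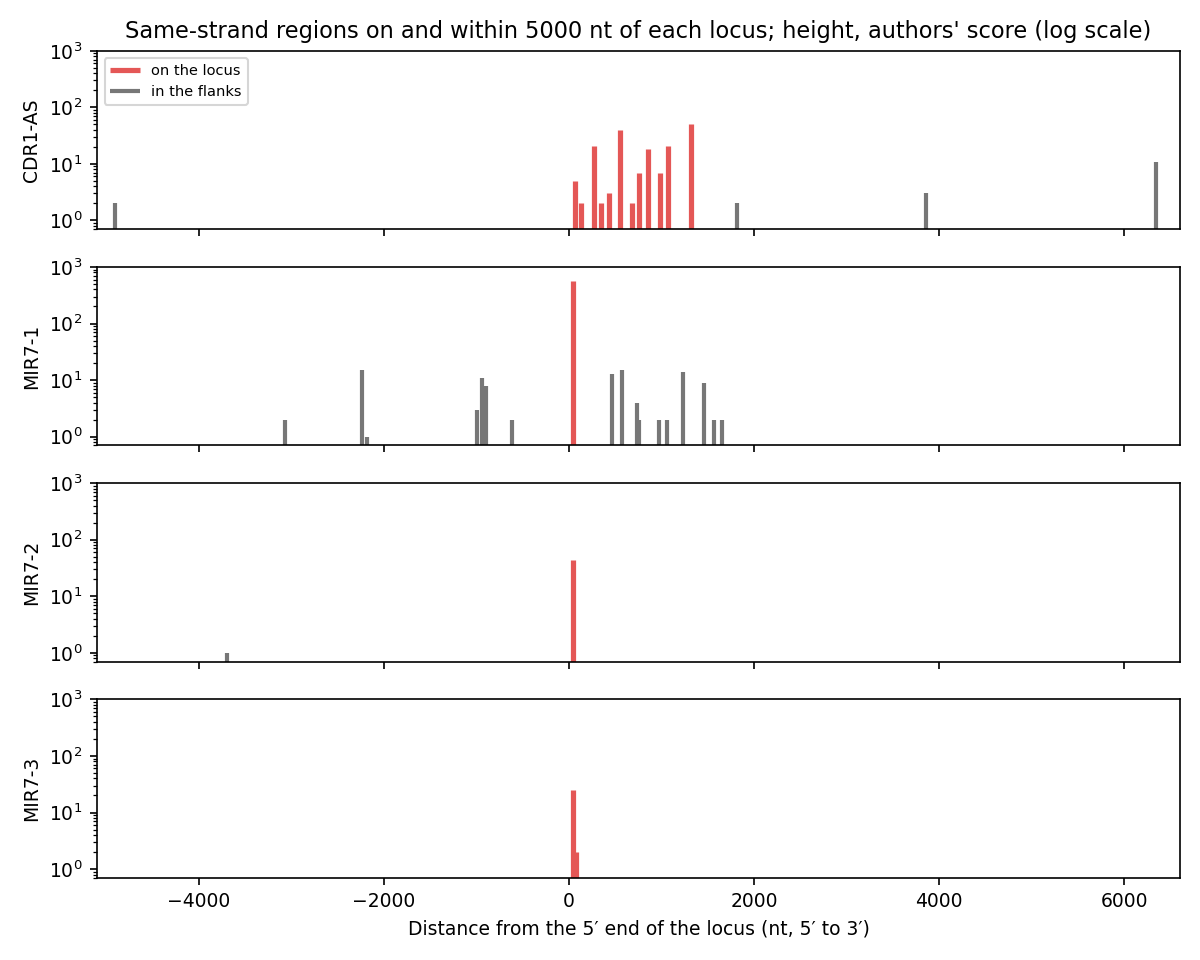
Authors' score (log scale) of each same-strand region on a locus (red) and within 5000 nt of it (grey), by distance in nt from the 5′ end of the locus. MIR7-1 rises to 565 among neighbours of at most 15, MIR7-2 and MIR7-3 stand nearly alone, and the circle is a dense block with 4 scattered neighbours of scores 2 to 11.

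The CDR1-AS circle was covered along most of its length. Its 12 regions took up 1143 of 1486 nt, or 76.9%, and had a summed score of 178. The first began after 28 uncovered nt and the last ended 26 nt before the 3′ edge of the exon. The list gives positions on the linear genome, so fragments across the head-to-tail junction, which is the mark of the circle, could not be seen here. The regions therefore do not show whether the RNA was circular or linear.

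Scores along the circle moved up and down rather than forming a single summit. From the 5′ end, the region at nt 29 to 106 (chrX:139865367-139865444) had a score of 5. That at nt 109 to 154 (chrX:139865447-139865492) had a score of 2. That at nt 216 to 315 (chrX:139865554-139865653) had a score of 21. A weak stretch followed this first raised region.
The region at nt 317 to 380 (chrX:139865655-139865718) had a score of 2. The region at nt 392 to 462 (chrX:139865730-139865800) had a score of 3. Next to it, the region at nt 496 to 606 (chrX:139865834-139865944) had a score of 39. This was the next to highest score on the circle.
In the region at nt 643 to 711 (chrX:139865981-139866049) the score was 2. In the region at nt 716 to 797 (chrX:139866054-139866135) it was 7. In the region at nt 825 to 890 (chrX:139866163-139866228) it was 18. Up to here, 3 raised regions had each been followed by regions of at most 7.
Toward the 3′ end, the score was 7 at nt 951 to 1004 (chrX:139866289-139866342). It was 21 at nt 1015 to 1122 (chrX:139866353-139866460). It was 51 at nt 1167 to 1460 (chrX:139866505-139866798), the highest and by far the widest region, which took up 19.8% of the circle.

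The 5 regions with scores of 18 or more carried 84.3% of the summed score of the circle. The other 7 scored between 2 and 7 and summed to 28. By position, nt 1 to 495 of the exon held 18.5% of the summed score, nt 496 to 990 held 41.0% and nt 991 to 1486 held 40.4%, each region being counted at its inner position. Coverage was more even, at 72.5%, 74.3% and 83.9% of the nucleotides in these stretches.

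**Figure D3:**
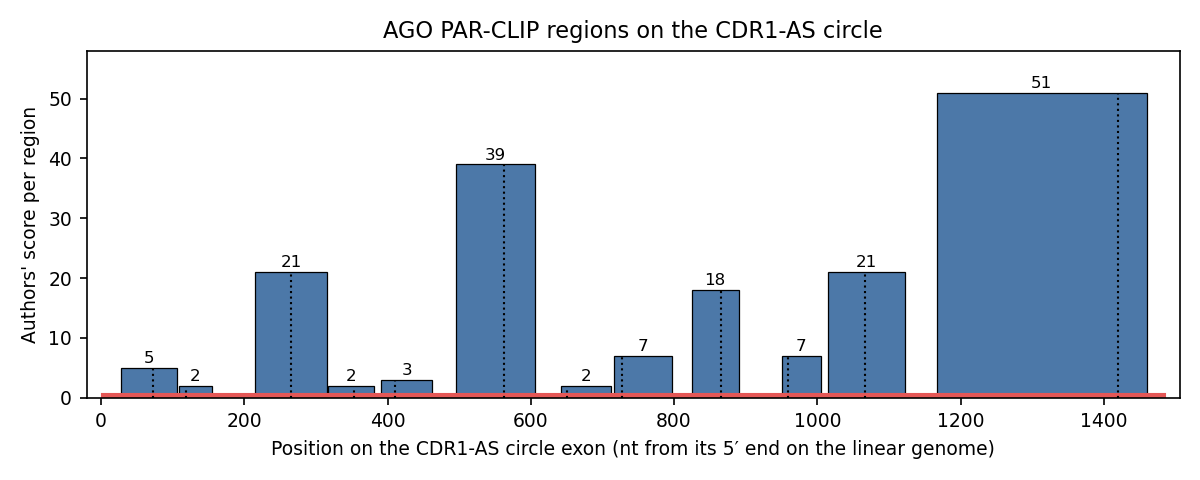
The 12 regions on the CDR1-AS circle, by position in nt from the 5′ end of the exon (red base line). The height of a bar is the authors' score, its width is the region, and the dotted line is the inner position. The 5 raised regions, with scores of 18 to 51, are spread along the exon with 7 regions of 2 to 7 among and before them.

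Regions on the circle were wide and lay close together. Their widths ranged from 46 to 294 nt with a median of 74.5 nt, against a median of 32 nt (interquartile range 25 to 43) over the whole list. At least 50 nt were reached by 11 of the 12, and by 12 of all 16 members, against 16.8% of all regions. The region of 294 nt was matched or exceeded in width by 0.0344% of the list, 73 regions with itself counted. All 12 had a same-strand neighbour within 100 nt, against 53.4% of nuclear regions. The gaps between them ranged from 1 to 61 nt with a median of 27 nt, against a median of 72 nt (interquartile range 22 to 220) over 135674 neighbouring pairs at most 1000 nt apart. Inner positions lay a median of 94 nt apart (range 47 to 353), against a median of 118 nt (interquartile range 66 to 260) for those pairs. Whether regions 1 nt apart are separate sites was not tested.

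The median score on the circle was above that of the list, but most circle regions scored below the median for their width. The median score was 7, against 3 over all regions. A score of at least 10 was held by 5 of the 12 circle regions and 3 of the 4 hairpin regions, against 11.0% of the list. A score of at least 100 was held by MIR7-1 alone among the members, against 0.264% of the list. Set beside nuclear regions within 10% of the same width, 5 circle regions lay above the median of their width class and 7 below it. The region with a score of 18 stood highest against its class, where 14.1% of regions reached it, followed by that with 39, reached by 16.8%. The widest, with 51, lay low: 90.2% of 51 regions of like width scored at least as much, and their median was 103. The circle regions with scores of 2 to 5 also lay low, each reached by 85.7% to 99.2% of its class.

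**Figure D4:**
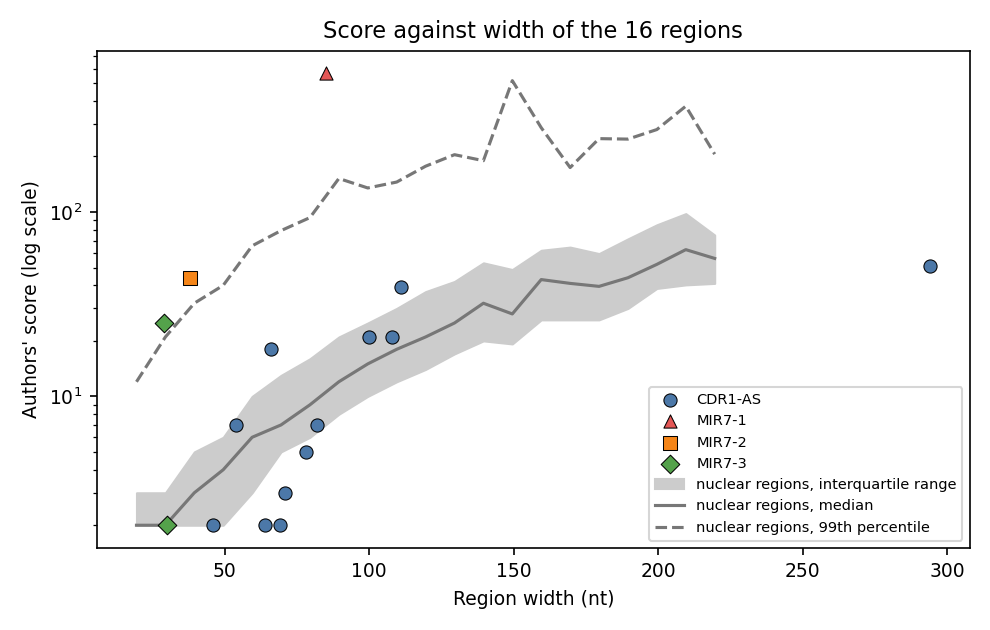
Score (log scale) against width in nt of the 16 members. The grey band and lines give the interquartile range, median and 99th percentile of the scores of nuclear regions in width classes of 10 nt with at least 20 regions. The hairpin regions that take in the 5p arm lie above the 99th percentile line. The width classes end at 224 nt, so the circle region of 294 nt lies beyond them. The other circle regions scatter on either side of the median.

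Among windows of its length, the circle's number of regions was not rare, but its coverage was. Windows of the circle's length were laid from each of the 211635 nuclear regions, and 9.50% of them held at least 12 regions. By this measure a count of 12 does not set the circle apart. A dense stretch enters once for each region in it, so such shares are weighted toward dense stretches. A summed score of at least 178 was found in 2.48% of the windows. At least as many covered nucleotides were found in 0.225%, though the windows held a median of only 3 regions. Among the 20109 windows with 12 or more regions, the median share covered was 44.4%, against 76.9% for the circle, and 1.94% were covered as much. Windows overlap and are not independent, and these shares are descriptions.

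Runs of regions joined over gaps of up to 100 nt gave separate units for the same comparison. Counted this way, each dense stretch enters once, and 0.522% of 133059 runs of any length held at least 12 regions. The 12 regions of the circle made up exactly 1 such run of 1432 nt, of which 79.8% was covered. Runs of exactly 12 regions numbered 140, with a median coverage of 62.5% (interquartile range 55.7 to 69.4). Of them 11, the circle included, reached 79.8%. So did 52 of the 695 runs of at least 12 regions. The median width of a region in the circle's run, 74.5 nt, was reached by 2 of the 140 runs, the circle included. Its summed score of 178 was reached by 22 of them, against a median of 84.5. The circle thus stood near the top of the 140 runs in width, and less so in coverage and score.

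**Figure D5:**
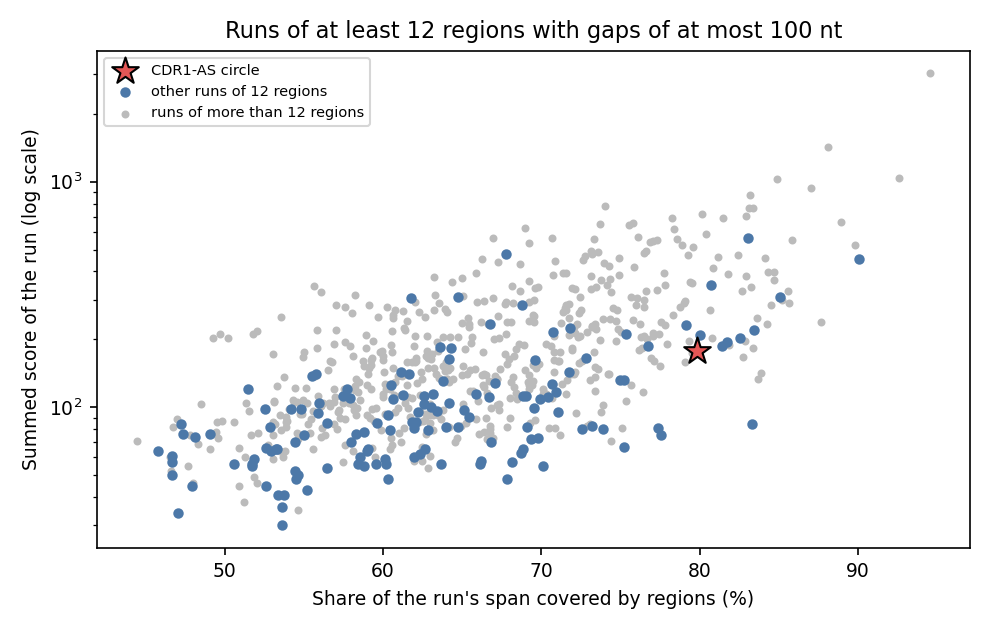
Summed score (log scale) against the share of the span covered, in percent, for runs of at least 12 regions with gaps of at most 100 nt. The star is the CDR1-AS circle (79.8% covered, summed score 178), blue points are the other runs of exactly 12 regions, and grey points are longer runs.

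The block ended at the edges of the exon. The nearest plus-strand region upstream of the circle was 4892 nt away and the nearest downstream 321 nt, each with a score of 2. Within 50000 nt on either side there were 9 other plus-strand regions, with scores of 1 to 11 and a median of 2. No minus-strand region was listed in that span. CDR1 therefore had no listed region within or around the circle.

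The circle and the hairpins differ in length, so their summed scores were also set per nt. Dividing by length does not remove width. Median scores of nuclear regions rose faster than width, from 2 at 15 to 24 nt to 62.5 at 205 to 214 nt. Per nt of the locus, the summed score was 5.14 on MIR7-1, 0.400 on MIR7-2 and 0.245 on MIR7-3, against 0.120 on the circle. Per covered nt it was 6.65 on MIR7-1, against 0.156 on the circle, where single regions ranged from 0.0290 to 0.351. The region that took in each hairpin's 5p arm was thus denser in score than any region on the circle. Its density was 1.16 per nt for MIR7-2 and 0.862 per nt for the first of MIR7-3. The hairpin regions hold the microRNA itself, whereas the circle is known as its target, so the densities are of different kinds of RNA.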

How the data were processed

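The deposited file is a single list of regions for the series, with no column per library. Per the file headers it lies on hg19, stems from a library set named AGO_good and was filtered under a name that holds 0.05. Reads were handled with BWA 0.5.8c, per the submitters' processing notes. For the region caller, the libraries pooled and the handling of reads with several matches, the setting is not given in the sources used. The score was deposited by the authors as whole numbers with no stated normalization. Start, end and inner position were deposited by the authors as coordinates, and are printed counting from 1.

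A region was a member if at least 1 nt overlapped a locus on its strand. Nuclear regions were those on the autosomes and X, where no 2 regions of a strand overlapped. Shares are descriptions, and no test could be made without values per library. Members, comparison sets and thresholds were chosen with earlier results of these data known, and the runs joined over 100 nt were added after the data were seen. All members and every region on them were named. No hg19 sequence or annotation was used, so seed matches on the circle were not analysed here. The functions were tested on 2000 simulated regions, where all 6 measures tested were recovered. The tools were matplotlib 3.10.9, numpy 2.4.6, scipy 1.17.1 and pandas 2.3.3 under Python 3.11.15.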

Additional observations from a re-analysis of the deposited data

How the results depend on the processing

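For 9 results, 31 other settings were computed. A count, summed score or distance was called unchanged within 1.5 times, and a share within its 95% Wilson interval. That interval covers at most counting error and takes the counted units as independent. Neighbouring nucleotides and overlapping windows are not, so it is too narrow for those shares, and small shifts could be called moved. In 23 settings the value was unchanged, among them all those for the minus strand of the circle, which stayed at 0. It moved in 8. With regions of score 3 or more, coverage of the circle was 64.9% in place of 76.9%, the inner positions were a median of 149 nt apart in place of 94, and MIR7-3 kept 1 region. Edge to edge, the median spacing on the circle was 27 nt. The share of windows with at least 12 regions, 9.50%, was 10.6% on chromosome X. With scores of 3 or more the circle kept 9 regions, and 11.3% of windows held at least 9. Joined over gaps of up to 1000 nt, the circle's run held 13 regions over 1803 nt, as it took in the region 321 nt downstream. Of 3314 runs within 25% of that span, 16.0% held at least 13 regions. These shares thus rest on different counts and units. With 1000 nt of flank, MIR7-1 had 11 regions. A score minimum leaves fewer regions and a flank adds them, by construction. Several of the unchanged settings could not have moved. No circle region scored below 2, each lay wholly inside the circle, and a score minimum cannot alter a count of 0. No paired analysis was possible because the list carries no library, and no library could be left out.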

Other observations

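The inner position of each region, a single nucleotide, was not drawn to a fixed place. On a scale from 0 at the 5′ edge of a region to 1 at its 3′ edge, it ranged from 0.118 to 0.863 on the circle with a median of 0.490, and 7 of the 12 lay in the 5′ part. On MIR7-1 it lay at nt 62 of the hairpin, between the arms. On MIR7-2 it lay at nt 40, base 9 of miR-7-5p, and on the first region of MIR7-3 at nt 54, base 24 and the last of miR-7-5p. On the last region of MIR7-3 it lay at nt 76. In the RefSeq hairpins of MIR7-2 and MIR7-3 all 3 of these positions are a U, the base that 4-thiouridine replaces, while U makes up 42.1% of the region on MIR7-2 and 28.8% of those on MIR7-3. Neither the labels nor the header say what the inner position marks.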
